A study of Mus musculus with 18 samples.

Results

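The 39 mouse Hox genes of clusters A to D were followed across all 18 RNA-sequencing libraries of the study. They were chosen by symbol alone, as the entries named Hox followed by a cluster letter from a to d and a number, and are 39 of 24505 gene entries. No measured value entered this rule, but the set was chosen with earlier results of these data known. Cluster A had 11 genes on chromosome 6 (52105366 to 52210874, minus strand, 105.5 kb), cluster B 10 genes on chromosome 11 (96055675 to 96229567, 173.9 kb), cluster C 9 genes on chromosome 15 (102751562 to 102867283, 115.7 kb) and cluster D 9 genes on chromosome 2 (74506367 to 74603199, 96.83 kb). Clusters B, C and D lie on the plus strand, and all positions are those of the deposited tables in mm9.

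Hox genes encode homeodomain transcription factors that give cells their position along the head to tail axis. Paralogue numbers run along each cluster, with low numbers expressed early and far forward in the embryo (hindbrain) and high numbers late and far back (lumbar, sacral and tail regions, limb ends, genital tract). In embryonic stem cells the clusters are kept nearly silent under Polycomb-deposited H3K27 methylation. Retinoic acid opens them, beginning with the low numbers, through receptors that bind near the clusters.

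The cells, from the E14Tg2a line of mouse embryonic stem cells, were either lacking Daxx (Daxx-null) or its unmodified parent (wild type). Daxx acts with Atrx as a chaperone for histone H3.3. Each genotype was grown in serum and 1000 units/mL of LIF (leukaemia inhibitory factor), in 2i with vitamin C (100 µg/mL), or in 10 µM retinoic acid for 4 days after 24 h without LIF. In 2i, a pair of kinase inhibitors against MEK and GSK3 holds cells in the ground state of pluripotency. The design speaks of neural differentiation in retinoic acid. Every group had n = 3 libraries from replicates described as independent, with no further word on how they were separated. The number of Daxx-null clones and the deleted part of the gene were not stated in the sources at hand. Daxx loss and anything else that sets the 2 lines apart cannot be told apart.

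Depth was 84.2 to 141.7 M counting units per library. The Daxx entry itself (NM_007829) read 68.7, 72.2 and 73.7 FPKM in Daxx-null serum libraries against 307, 319 and 353 FPKM in wild-type ones, with a like gap in 2i (54.4, 56.0 and 57.6 FPKM against 434, 423 and 402 FPKM) and after retinoic acid (62.7, 61.7 and 60.8 FPKM against 238, 242 and 265 FPKM). FPKM values here are on the authors' scale, inferred to be about 10 times a conventional FPKM. Replicate 2 of the Daxx-null 2i cells stood apart: its log2 values correlated across genes with its sister libraries at 0.936 on average, against 0.958 and 0.962 for replicates 1 and 3, and 0.975 to 0.992 for libraries of the other groups. Results that rest on it are given with and without it. The 9 pluripotency markers summed to 10558 to 31499 FPKM per library in serum and 2i and to 773 to 1089 FPKM after retinoic acid. There, 12 neural progenitor markers summed to 1824 to 2948 FPKM. Their mean wild-type sum was 744 FPKM in serum and 2051 FPKM in retinoic acid. Mean wild-type sums also went from 221 to 1736 FPKM for endoderm markers. They went from 97.5 to 851 FPKM for fibroblast and from 65.2 to 635 FPKM for mesoderm markers. The rise was therefore not particular to the neural list.

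Of the 39 genes, 37 reached 1 FPKM in 3 or more libraries and were tested. The other two were Hoxd10, at most 2.197 FPKM (replicate 2 of the Daxx-null 2i cells), and Hoxd12, at most 0.298 FPKM and listed at 0 in 11 libraries. Tests used limma on log2(FPKM + 0.5) over all 18002 genes past the same filter, and calls needed an adjusted p (Benjamini-Hochberg) below 0.05. Fold changes are all on this log2 scale, on which changes of low genes come out too small.

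In serum the clusters were low but not empty, and the highest member sat at the far end of its cluster. The summed FPKM of the 39 genes was 48.5, 68.4 and 70.6 in Daxx-null cells and 108, 121 and 197 in wild-type cells. A mean of at least 10 FPKM was reached by 1 gene in Daxx-null and 3 genes in wild-type cells, while 23 and 15 genes averaged under 1 FPKM. Hoxc13, a regulator of hair and nail keratins at the 5′ end of cluster C, led both groups with 13.4 ± 1.89 FPKM in Daxx-null and 31.4 ± 10.0 FPKM in wild-type cells (SD, n = 3). In Daxx-null serum cells Hoxa6, Hoxc6, Hoxc11 and Hoxd12 rested on at most 3 counting units over the whole group, with Hoxc11 listed at 0 in all 3 libraries.

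Retinoic acid raised all 27 genes of paralogue groups 1 to 9 in both genotypes. Summed Hox FPKM was 9712, 9840 and 8889 in Daxx-null and 9591, 9513 and 8288 in wild-type retinoic acid cells, a ratio of sums over serum of 152 in Daxx-null and 64.3 in wild-type cells. Against serum, 30 of the 37 tested genes rose and 3 fell in Daxx-null cells, where 33.0% of all tested genes rose and 33.1% fell. In wild-type cells 30 rose and 2 fell, where 30.4% of all tested genes rose and 34.1% fell. The median log2 change of the Hox genes was 7.10 in Daxx-null and 6.21 in wild-type cells, beside -0.02 and -0.05 for all genes. These counts are a description, because a gene could pass the filter through the culture where it was high: 18 of the 37 would not have passed on the serum libraries alone.

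**Figure D1:**
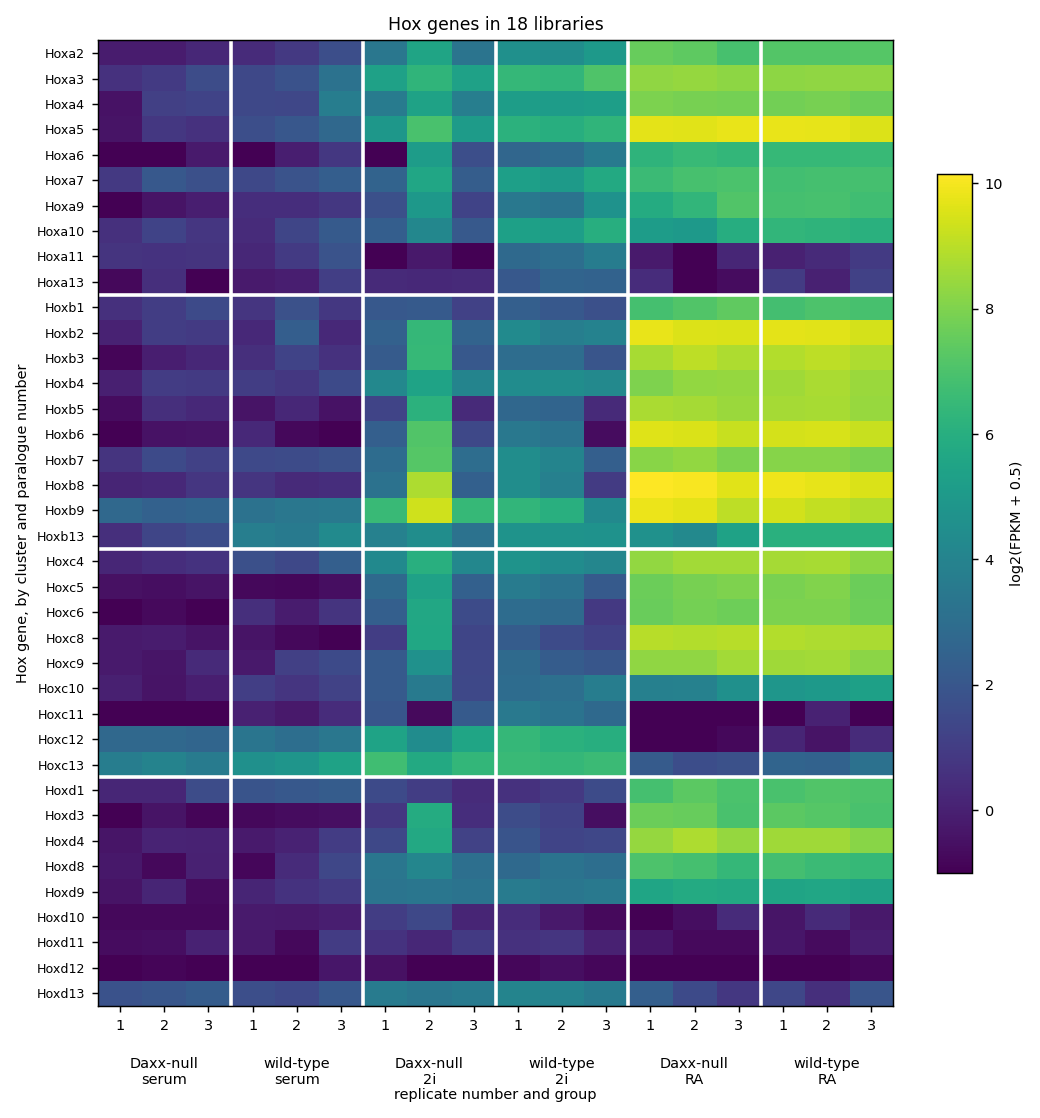
Expression of the Hox genes (rows, by cluster and paralogue number, white lines between clusters) in each of the 18 libraries (columns, by group and replicate number); colour is log2(FPKM + 0.5). Rows of paralogues 1 to 9 are bright in all 6 retinoic acid (RA) libraries, rows such as Hoxc12 and Hoxc13 are brightest in 2i, and replicate 2 of the Daxx-null 2i group is a bright column between its sisters.

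The induction followed the paralogue number. All 27 genes of groups 1 to 9 averaged at least 51.3 FPKM in Daxx-null and at least 45.2 FPKM in wild-type retinoic acid cells. Hoxb8, known for its action in blood cell progenitors, was the highest Hox gene there, with 1140, 1063 and 800.4 FPKM in Daxx-null and 945, 866 and 736 FPKM in wild-type cells. Hoxa5, which patterns the lung and the neck vertebrae, had 840, 806 and 887 FPKM in Daxx-null and 870, 850 and 753 FPKM in wild-type cells. Hoxb2, a gene of the hindbrain segments, had 879, 754 and 736 FPKM in Daxx-null and 822, 798 and 701 FPKM in wild-type cells. For all 3 genes the genotypes overlapped, and each was far above the serum libraries, where the highest value of the 3 genes was 6.39 FPKM.

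Among the strongest wild-type rises were Hoxb6, a thoracic gene (log2 change 9.88), Hoxc8, a gene of forelimb-level motor neurons (9.53, SE 0.79, adjusted p = 3.6e-08), and Hoxb8 (9.22, SE 1.16). Groups 10 and above behaved differently. Summed FPKM of paralogue group 8 was 1596 ± 201 in Daxx-null and 1397 ± 136 in wild-type retinoic acid cells, and that of group 9 was 1243 ± 116 and 1085 ± 152. Group 10 summed to only 60.7 ± 22.4 and 108 ± 0.726, group 11 to 0.513 ± 0.348 and 1.35 ± 0.482, and group 12 to 0.0287 ± 0.0497 and 0.573 ± 0.303 (SD, n = 3 each). Hoxa10, Hoxc10 and Hoxb13 were the 3 genes of groups 10 to 13 that rose in retinoic acid.

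Hoxc12 and Hoxc13 went the other way. Hoxc12, at the 5′ end of its cluster, had 0, 0 and 0.086 FPKM in Daxx-null retinoic acid cells against 6.39, 6.22 and 5.65 FPKM in serum, and 0.614, 0.252 and 0.789 against 9.47, 7.66 and 10.3 FPKM in wild-type cells. It fell by 3.64 in Daxx-null and by 3.22 in wild-type cells (SE 0.286 for both, adjusted p = 1.6e-08 and 7.8e-08). Hoxc13 fell by 1.92 and 2.19 (SE 0.264, adjusted p = 8.6e-06 and 2.4e-06). In both genotypes no retinoic acid library reached the serum range of either gene. Hoxa11 also fell in Daxx-null cells, from low levels (log2 change -0.998, SE 0.408, adjusted p = 0.041), a call lost without any 1 of the 3 Daxx-null serum libraries or of Daxx-null retinoic acid replicates 1 and 2 (adjusted p = 0.06 to 0.198).

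Cluster B supplied about equal parts of the retinoic acid total in both genotypes, 51.3 ± 3.02% in Daxx-null and 50.05 ± 0.813% in wild-type cells. Cluster A made up 22.5 ± 1.597% and 23.1 ± 1.46%, cluster C 17.4 ± 1.93% and 18.5 ± 0.506%, and cluster D 8.84 ± 0.825% and 8.36 ± 0.246% (SD, n = 3). In wild-type serum cells cluster B had held 26.0 ± 5.16% and cluster C 34.5 ± 2.13%.

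Ground-state culture also raised the Hox genes over serum, by less and in another order. In Daxx-null cells 33 of 37 rose and 1 fell (Hoxa11, log2 change -1.41, adjusted p = 0.0066), where 41.8% of all tested genes rose and 21.8% fell. In wild-type cells 27 rose and 1 fell, where 24.7% rose and 24.8% fell. Without replicate 2 the Daxx-null count was 31 higher and 1 lower (40.7% and 22.2% of all genes). The median log2 change was 3.13 in Daxx-null cells (2.36 without replicate 2, against 0.28 and 0.23 for all genes). In wild-type cells it was 2.53 (against -0.02). These counts and medians, and the counts by cluster below, are a description too. A gene could pass the filter through the culture where it was high, and 18 of the 37 would not have passed on the serum libraries alone.

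All 11 cluster A genes rose in wild-type 2i cells, against 5 of 10 in cluster B, 8 of 9 in cluster C and 3 of 7 tested in cluster D. Without wild-type 2i replicate 3, which was the lowest of 3 for 9 of 10 cluster B genes, these were 11, 8 of 10, 9 of 9 and 3 of 7. Hoxa3, which patterns the thymus and parathyroid, had 85.2, 80.5 and 136 FPKM in wild-type 2i cells against 2.201, 3.05 and 8.67 FPKM in wild-type serum cells. Its groups were far apart, with a log2 change of 4.46 (SE 0.375, adjusted p = 1.4e-07). The span of Hoxa3 in the annotation covers Hoxa4, Hoxa5 and Hoxa6, so its reads may be shared with theirs. Summed over the clusters, the means of groups 11, 12 and 13 in wild-type cells were higher in 2i (18.5, 73.2 and 137 FPKM) than in serum (2.96, 9.23 and 49.8 FPKM) or retinoic acid (1.35, 0.573 and 77.2 FPKM). Hoxc12 had 85.0, 70.1 and 64.2 FPKM in wild-type 2i cells against 9.47, 7.66 and 10.3 FPKM in wild-type serum cells (log2 change 2.93, SE 0.286, adjusted p = 6.5e-07). Hoxd1, in mouse a gene of pain-sensing neurons, was the exception and fell in wild-type 2i cells, with 1.02, 1.29 and 2.41 FPKM against 3.20, 3.70 and 4.18 FPKM in serum (log2 change -1.06, SE 0.367, adjusted p = 0.024). No Hox gene fell in wild-type 2i cells under quantile normalization, with the authors' normalised table, or without wild-type serum replicate 2 or 3 or wild-type 2i replicate 1 or 2.

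Between genotypes in 2i, genes of cluster A were lower in Daxx-null cells. Of the 37 tested genes 8 fell and 1 rose, where 15.3% of all tested genes fell and 31.5% rose, so the falls were 21.6% of the Hox genes. The falls included Hoxa7, Hoxa10, Hoxa11 and Hoxa13 in cluster A, with Hoxb13, Hoxc11 and Hoxc12. Without replicate 2, 16 fell and 0 rose (14.7% and 29.5% of all genes), and the 16 held all 11 genes of cluster A with Hoxb2, Hoxb13, Hoxc10, Hoxc11 and Hoxc12. The median log2 difference of the 37 genes was -0.19 (-0.57 without replicate 2), beside 0.20 (0.16) for all genes. In bulk RNA, fewer cells that express a gene and less RNA per cell cannot be told apart.

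Summed FPKM of cluster A was 188, 520 and 191 in the 3 Daxx-null 2i libraries and 471, 452 and 663 in the wild-type ones. Replicates 1 and 3 of the Daxx-null cells were below every wild-type library for 11 of 11 genes in cluster A, 3 of 10 in cluster B, 3 of 9 in cluster C and 1 of 9 in cluster D. This count leaves out replicate 2 after its values were seen. It was not made over all genes, so how unusual it is cannot be told. Replicate 2 reached the wild-type sum. Without replicate 2 the drop in cluster A was deepest for Hoxa11 and Hoxa10 (log2 difference -4.18 and -3.30). Hoxa13, at the 5′ end, then fell less (-2.05) than Hoxa7 (-2.98). Groups 10 to 13 of cluster A, mostly Hoxa10, summed to 5.35, 18.5 and 4.55 FPKM in Daxx-null and 50.0, 50.4 and 81.5 FPKM in wild-type 2i cells.

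Hoxa10 (NM_008263, chromosome 6, 52181196 to 52184938), a lumbar and uterine gene, had 4.61, 17.5 and 3.78 FPKM in Daxx-null and 39.7, 37.4 and 64.1 FPKM in wild-type 2i cells. The groups did not overlap, and the log2 difference was -2.65 (SE 0.493, adjusted p = 0.00047; -3.30 without replicate 2). Hoxa11 (NM_010450, 52192104 to 52195809), which shapes kidney, forearm and uterus, had 0, 0.338 and 0 FPKM in Daxx-null and 6.63, 7.58 and 12.3 FPKM in wild-type 2i cells. It showed the deepest fall of any Hox gene (log2 difference -3.93, SE 0.408, adjusted p = 3.9e-06; -4.18 without replicate 2). Hoxa11os lies opposite Hoxa11 and fell as well, and since strand was not given, reads of the pair cannot be told apart.

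Hoxa13, a gene of digits and hindgut, had 0.738, 0.708 and 0.764 FPKM in Daxx-null and 3.69, 5.47 and 5.11 FPKM in wild-type 2i cells. All 3 Daxx-null values lay below the lowest wild-type value, replicate 2 included (log2 difference -2.07, SE 0.454, adjusted p = 0.0016). Hoxa7, a thoracic gene, had 5.34, 47.9 and 4.33 FPKM in Daxx-null and 39.0, 33.4 and 54.4 FPKM in wild-type 2i cells. Here replicate 2 overlapped the wild type. The log2 difference was -1.92 (SE 0.605, adjusted p = 0.017), and -2.98 without replicate 2 (SE 0.318, adjusted p = 6.9e-06). The call was lost without Daxx-null replicate 1 or 3 or wild-type replicate 3 (adjusted p = 0.0746, 0.0895 and 0.0627). Hoxa3 had 41.8, 78.1 and 40.9 FPKM in Daxx-null against 85.2, 80.5 and 136 FPKM in wild-type 2i cells (log2 difference -0.93, adjusted p = 0.053), and Hoxa5 had 29.2, 124 and 34.2 FPKM against 70.8, 62.7 and 78.6 FPKM (-0.49, adjusted p = 0.36). Both were called without replicate 2 (-1.23 and -1.14, adjusted p = 0.018 and 0.0079).

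**Figure D2:**
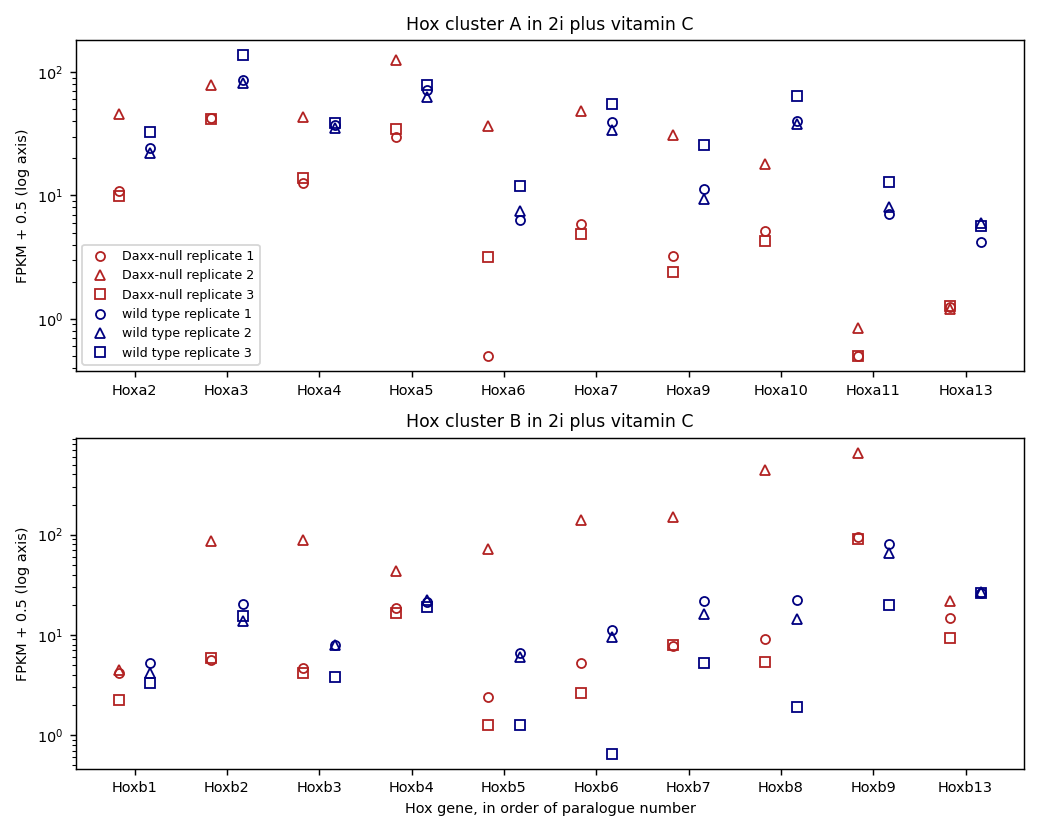
Expression of the cluster A and cluster B genes in the 6 libraries grown in 2i with vitamin C, as FPKM + 0.5 on a log axis, 1 point per library (red Daxx-null, blue wild type; symbols give the replicate number). Red circles and squares (replicates 1 and 3) lie below all blue points throughout cluster A, whereas in cluster B red triangles (replicate 2) stand above every other point from Hoxb2 to Hoxb9.

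In cluster C, Hoxc11 had 3.48, 0.106 and 4.00 FPKM in Daxx-null and 10.8, 8.96 and 6.58 FPKM in wild-type 2i cells (log2 difference -2.04, SE 0.55, adjusted p = 0.0066; -1.11 without replicate 2, adjusted p = 0.011). Hoxc12 had 43.7, 20.7 and 46.9 FPKM in Daxx-null and 85.0, 70.1 and 64.2 FPKM in wild-type 2i cells (-1.05, SE 0.286, adjusted p = 0.0072). Without replicate 2 its log2 difference was -0.67 (adjusted p = 0.033). For both 5′ genes the groups did not overlap, and replicate 2 was the lowest Daxx-null library. Hoxc13 had 107, 54.3 and 83.9 FPKM in Daxx-null and 95.3, 85.7 and 96.5 FPKM in wild-type 2i cells and was not called.

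The rise was Hoxb9 (NM_008270, chromosome 11, 96132644 to 96137907), a thoracic gene, with 94.9, 652 and 89.5 FPKM in Daxx-null and 80.4, 65.5 and 19.4 FPKM in wild-type cells. All 3 Daxx-null values lay above the wild type (log2 difference 1.91, SE 0.595, adjusted p = 0.016), but without replicate 2 it was 0.97 (adjusted p = 0.066) and without wild-type replicate 3 it was 1.28 (adjusted p = 0.098). Hoxb8 had 8.67, 441 and 4.89 FPKM in Daxx-null and 21.6, 13.9 and 1.43 FPKM in wild-type 2i cells and was not called. Hoxb13, a gene of tail and prostate, had 14.3, 21.4 and 8.84 FPKM in Daxx-null and 25.8, 26.2 and 25.6 FPKM in wild-type 2i cells. Its groups did not overlap, yet the call was marginal (log2 difference -0.86, SE 0.344, adjusted p = 0.0497). The call was lost without Daxx-null replicate 1 or 3 or any 1 wild-type library (adjusted p = 0.0772 to 0.216). Without Daxx-null replicate 2 it was kept (-1.16, adjusted p = 0.014).

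Wild-type 2i replicate 3 moved clusters A and B apart, being the highest of 3 for 10 of 11 cluster A genes and the lowest of 3 for 9 of 10 cluster B genes, counts not made over all genes. Without both it and Daxx-null replicate 2, 23 genes fell and 0 rose, 9 of them in cluster A, 7 in B, 6 in C and 1 in D, where 14.8% of all genes fell and 26.0% rose. Leaving out any single library gave 6 to 16 falls (13.5% to 16.8% of all genes) and 0 to 3 rises, with 0 rises without wild-type replicate 3 and 3 without Daxx-null replicate 3. With only the 6 libraries of 2i in the fit, 4 genes fell, Hoxa10, Hoxa11 and Hoxa13 among them, and 0 rose, where 6.69% of all genes fell and 15.1% rose. Under quantile normalization 13 fell and 1 rose, where 23.3% of all genes fell and 20.7% rose.

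Markers of other cell types moved with genotype in 2i, where 31.5% of all genes were higher and 15.3% lower (29.5% and 14.7% without replicate 2). The 10 endoderm markers summed to 355, 888 and 357 FPKM in Daxx-null and 201, 207 and 95.0 FPKM in wild-type cells (6 of 10 higher, 4 of 10 without replicate 2). The 8 trophoblast markers summed to 1056, 1060 and 970 FPKM against 503, 505 and 404 FPKM (4 of 7 tested higher, with or without replicate 2), and the 9 pluripotency markers to 19938, 10558 and 17560 FPKM against 23396, 23622 and 25438 FPKM (4 of 9 lower, 1 of 9 without replicate 2). Their part in the Hox differences was not tested.

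**Figure D3:**
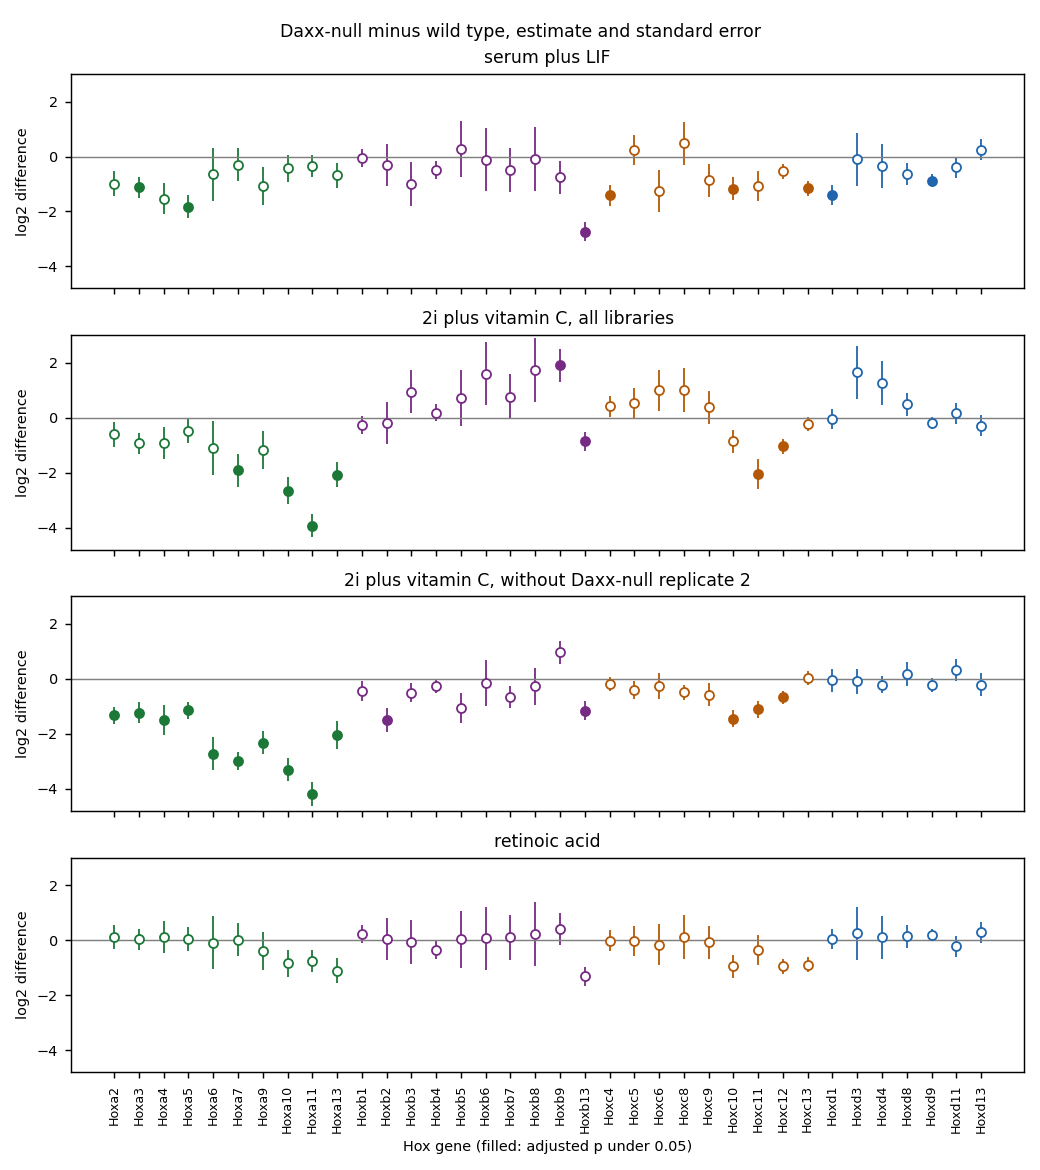
Log2 difference of the tested Hox genes between Daxx-null and wild-type cells (point, limma estimate; line, 1 standard error; filled, adjusted p under 0.05; colours by cluster) in serum, in 2i with all libraries, in 2i without Daxx-null replicate 2, and in retinoic acid. Cluster A points in 2i run down to -3.93 at Hoxa11 and are all filled once replicate 2 is left out, while 0 points are filled in retinoic acid.

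In serum, the Hox genes that differed between genotypes were all lower in Daxx-null cells and came from all 4 clusters. Of the 37 genes 9 fell, where 18.9% of all tested genes fell, so 24.3% of the Hox genes stand beside that background. With limma 0 rose, where 9.29% of all genes rose. Under quantile normalization and median-ratio scaling 0 rose as well, beside 12.1% and 13.6% of all genes. At an unadjusted p under 0.05, 0 were higher in the main fit, where 13.1% of all genes were. The falls included Hoxa3 and Hoxa5, Hoxb13, Hoxc4, Hoxc10 and Hoxc13, and Hoxd1 and Hoxd9. The median log2 difference was -0.65, beside -0.12 for all genes.

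Hoxb13 (NM_008267, chromosome 11, 96055675 to 96057913) changed most, with 0.904, 1.99 and 2.64 FPKM in Daxx-null and 13.1, 11.4 and 19.5 FPKM in wild-type serum cells. The groups were far apart (log2 difference -2.73, SE 0.344, adjusted p = 4.6e-05). Hoxa5 had 0.243, 1.27 and 1.01 FPKM in Daxx-null and 2.66, 3.55 and 6.39 FPKM in wild-type serum cells (-1.82, SE 0.429, adjusted p = 0.0051). Hoxc4, a cervical gene, had 0.644, 0.879 and 1.05 FPKM in Daxx-null and 2.76, 2.21 and 4.74 FPKM in wild-type serum cells (-1.41, SE 0.378, adjusted p = 0.011, or 0.0606 without wild-type replicate 3). Neither gene's groups overlapped.

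Hoxc13 had 12.7, 15.6 and 12.0 FPKM in Daxx-null and 23.7, 27.8 and 42.7 FPKM in wild-type serum cells (log2 difference -1.16, SE 0.264, adjusted p = 0.0041). Hoxd1 had 0.637, 0.639 and 2.55 FPKM in Daxx-null and 3.20, 3.70 and 4.18 FPKM in wild-type serum cells (-1.40, SE 0.367, adjusted p = 0.0098). Both genes were lower in every Daxx-null library. Hoxa3 overlapped between the genotypes, with 1.00, 1.34 and 2.55 FPKM in Daxx-null and 2.201, 3.05 and 8.67 FPKM in wild-type serum cells (-1.13, SE 0.375, adjusted p = 0.034). Its call was lost without Daxx-null serum replicate 1 or 2 or wild-type serum replicate 3 (adjusted p = 0.143, 0.0928 and 0.186), and that of Hoxd1 without Daxx-null serum replicate 1 (adjusted p = 0.0535). All 3 Daxx-null libraries lay below all 3 wild-type ones for 16 of 37 Hox genes, where 35.6% of all genes did so, and above for 2 of 37 (Hoxc5 and Hoxc8, both under 0.5 FPKM throughout serum), where 19.1% did.

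Wild-type serum replicate 3 was the highest of 3 for 32 of the 39 genes and for all 11 of cluster A, counts not made over all genes. Its cluster A sum was 2.40 times the mean of the other libraries of its group. Without wild-type serum replicate 3 a total of 5 genes fell, Hoxa5, Hoxb13, Hoxc13 and Hoxd1 among them, where 14.3% of all genes fell. Under quantile normalization 4 of 37 fell, among them Hoxa5, Hoxb13 and Hoxc13. There 11.8% of all genes fell, no smaller a share than among the Hox genes. Under median-ratio scaling 7 fell, where 14.0% of all genes did. In serum the 10 fibroblast markers summed to 29.1, 39.3 and 40.9 FPKM in Daxx-null and 109, 109 and 75.2 FPKM in wild-type cells (4 of 10 lower). The 10 endoderm markers summed to 79.2, 86.7 and 84.1 FPKM against 203, 207 and 252 FPKM (5 lower and 1 higher). Both lists stand beside 18.9% of all genes lower and 9.29% higher. Their part in the Hox differences was not tested.

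After retinoic acid no Hox difference between genotypes passed the test. With limma 0 of 37 genes rose and 0 fell, where 0.222% and 2.27% of all genes did. At an unadjusted p under 0.05, 0 were higher and 5 lower (Hoxa13, Hoxb13, Hoxc10, Hoxc12 and Hoxc13), beside 12.5% of all genes in either direction. The median log2 difference was 0.02, beside -0.05 for all genes. Group means of the 27 genes of paralogues 1 to 9 ran from 0.784 to 1.34 times the wild type.

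The 5 genes lower at an unadjusted p under 0.05 were all of groups 10 to 13, but 0 passed the adjusted test. Hoxd13 was not lower, with a mean of 2.76 FPKM in Daxx-null and 2.12 FPKM in wild-type retinoic acid cells. Summed FPKM of groups 10 to 13, most of it from Hoxa10 and Hoxb13, was 83.5, 70.4 and 134 in Daxx-null and 185, 184 and 193 in wild-type cells. All 3 Daxx-null libraries lay below all 3 wild-type ones for Hoxa10, Hoxb4, Hoxb13, Hoxc10, Hoxc12 and Hoxc13. These are 6 of 37, a share no larger than the 17.7% of all genes. None lay above in all 3, beside 9.75% of all genes. Hoxb13 had 24.4, 18.7 and 42.4 FPKM in Daxx-null and 66.4, 66.3 and 69.5 FPKM in wild-type retinoic acid cells. It came nearest to the threshold (log2 difference -1.31, SE 0.344, adjusted p = 0.0595), and 1 gene fell with a pseudocount of 1 or 0.1, with the authors' normalised table, or without Daxx-null replicate 3. Hoxa10 had 35.0, 32.0 and 62.1 FPKM in Daxx-null and 79.6, 75.8 and 67.5 FPKM in wild-type cells (-0.84, adjusted p = 0.55). Endoderm markers summed to 804, 635 and 665 FPKM in Daxx-null and 1270, 1171 and 2769 FPKM in wild-type retinoic acid cells (3 of 10 lower, beside 2.27% of all genes). Of the 9 pluripotency markers 5 were lower (Zfp42, Pou5f1, Nanog, Klf4 and Dppa5a), with a median log2 difference of -1.11, while their sums overlapped (965, 1089 and 773 FPKM in Daxx-null and 863, 811 and 982 FPKM in wild-type cells). The part of either list in these values was not tested.

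The difference between genotypes was itself compared between cultures, for 2i minus serum and for retinoic acid minus serum. For 2i minus serum 4 genes had a higher difference (31.5% of all genes) and 2 a lower one (11.5%). The higher ones were Hoxb9 (2.66, adjusted p = 0.018), Hoxb13 (1.87, adjusted p = 0.0061), Hoxc4 (1.83, adjusted p = 0.012) and Hoxd1 (1.37, adjusted p = 0.044). The lower ones were Hoxa10 (-2.22, adjusted p = 0.018) and Hoxa11 (-3.58, adjusted p = 0.0002). Without replicate 2, Hoxb9, Hoxb13, Hoxc4 and Hoxc13 were higher (31.5% of all genes), and Hoxa6, Hoxa7, Hoxa10, Hoxa11 and Hoxc8 lower (11.6%). Without wild-type serum replicate 1 only Hoxa11 remained lower (Hoxa10 adjusted p = 0.0522), and without wild-type 2i replicate 3 Hoxb9 missed the threshold (adjusted p = 0.0504). The Hoxd1 call was lost without any 1 of the libraries involved other than Daxx-null serum replicate 3, Daxx-null 2i replicate 3 and wild-type 2i replicate 3 (adjusted p = 0.0562 to 0.112). Under quantile normalization 0 were higher and 6 lower (Hoxb9 2.11, adjusted p = 0.0702), and under median-ratio scaling 3 were higher and 2 lower. For retinoic acid minus serum 1 Hox gene had a higher difference and 0 a lower one, beside 4.82% and 3.38% of all genes. Under quantile normalization 0 were higher and 0 lower, beside 3.155% and 3.677% of all genes.

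Replicate 2 of the Daxx-null 2i cells, which stood apart over all genes, also differed from its sister libraries in the Hox genes. It was above both sister libraries for 31 of 39 genes, among them 10 of 10 in cluster B, 10 of 11 in A, 6 of 9 in C and 5 of 9 in D. It was below both for 6 (Hoxa13, Hoxc11, Hoxc12, Hoxc13, Hoxd11 and Hoxd13) between them for Hoxd1, and level with replicate 3 at 0 FPKM for Hoxd12. As this is a single library, these values carry no test. The counts were not made over all genes, so they are not shown to be particular to the Hox genes. Cluster B summed to 163, 1696 and 140.3 FPKM in replicates 1, 2 and 3, and replicate 2 drew 63.1% of its Hox total from it, against 27.8% and 26.4% in its sisters. Hoxc12 and Hoxc13, which fell in retinoic acid in both genotypes, were at 0.457 and 0.569 times the mean of the sisters.

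The size of the shift differed along the clusters. It was measured as the share of the way from the mean of replicates 1 and 3 to the Daxx-null retinoic acid mean, for the 26 genes with a retinoic acid mean of at least 50 FPKM and more than 3 times that of the sisters. The median share was 14.95%, beside 20.4% (interquartile range 10.5 to 35.0) over all 864 genes that met the same terms. By cluster the medians were 23.7% in A (7 genes), 18.3% in B (9), 13.7% in C (5) and 7.68% in D (5). The highest shares were 83.7% for Hoxb9, 51.1% for Hoxb7, 43.6% for Hoxb8 and 42.2% for Hoxa6, all of paralogue groups 6 to 9. Hoxb1 and Hoxd1, which retinoic acid brought to means of 143 and 135.5 FPKM in Daxx-null cells, were at 0.88% and -0.053%.

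**Figure D4:**
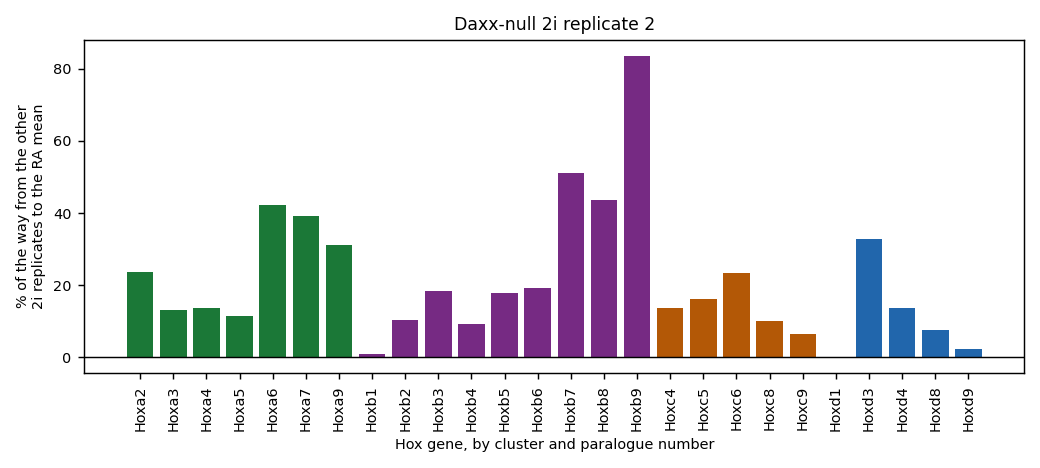
Position of Daxx-null 2i replicate 2 between the mean of its 2 sister libraries (0%) and the Daxx-null retinoic acid mean (100%) for the 26 Hox genes induced by retinoic acid, 1 bar per gene, coloured by cluster. Bars climb within cluster B to 83.7% at Hoxb9, and those of Hoxb1 and Hoxd1 are close to 0.

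In fold over its sisters, replicate 2 was highest for Hoxb8 (65.0), Hoxb5 (53.5), Hoxd3 (53.4) and Hoxb6 (40.7). Hoxd3, which patterns the first neck vertebrae, read 1.28, 57.1 and 0.863 FPKM in Daxx-null replicates 1, 2 and 3, against 2.53, 1.73 and 0.176 FPKM in wild-type 2i cells. The span of Hoxd3 in the annotation covers Hoxd4, so its reads may be shared with those of Hoxd4. Hoxd4 read 2.14, 52.3 and 1.80 FPKM in the same Daxx-null libraries. Hoxc4 read 19.3, 66.1 and 17.5 FPKM against 26.1, 21.2 and 16.96 FPKM. Hoxb2 read 5.10, 86.4 and 5.39 FPKM against 19.7, 13.1 and 14.8 FPKM. In each case replicate 2 alone stood above both the sisters and the wild type. Neural progenitor markers summed to 366, 1949 and 356 FPKM in replicates 1, 2 and 3, fibroblast markers to 88.5, 472 and 85.6, endoderm markers to 355, 888 and 357, mesoderm markers to 76.1, 81.9 and 64.6, neural crest markers to 221, 232 and 186 and pluripotency markers to 19938, 10558 and 17560. Their part in the Hox values of this library was not tested.

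Promoter windows are shown for genes at the extremes of this shift. They were taken from RefSeq (GRCm38.p6), run from 250 bases before to 50 bases after the annotated start, and matched 22 of the 39 genes in 24 windows. Shown are Hoxb8 and Hoxd3, the genes of clusters B and D with the largest fold in replicate 2, and Hoxb1 and Hoxd1, the genes of the same clusters with the smallest share of the way, all chosen after their values were seen. Capitals mark TTTATG or its reverse complement CATAAA, the core that caudal-type (Cdx) factors recognise, searched on both strands.
Hoxb8, chr11:96281655-96281954, plus strand: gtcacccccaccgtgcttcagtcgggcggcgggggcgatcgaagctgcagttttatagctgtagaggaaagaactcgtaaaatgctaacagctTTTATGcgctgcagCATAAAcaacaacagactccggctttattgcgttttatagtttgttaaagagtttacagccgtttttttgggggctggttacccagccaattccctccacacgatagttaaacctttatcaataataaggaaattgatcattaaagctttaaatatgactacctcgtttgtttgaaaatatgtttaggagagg
Hoxd3, chr2:74711743-74712042, plus strand: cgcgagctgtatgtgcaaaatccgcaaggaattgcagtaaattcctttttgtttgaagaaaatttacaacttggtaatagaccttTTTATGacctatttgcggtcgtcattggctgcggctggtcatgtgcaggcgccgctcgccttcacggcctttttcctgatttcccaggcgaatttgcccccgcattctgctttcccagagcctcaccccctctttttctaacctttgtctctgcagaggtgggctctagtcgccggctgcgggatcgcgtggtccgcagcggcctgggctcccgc
Hoxb1, chr11:96365508-96365807, plus strand: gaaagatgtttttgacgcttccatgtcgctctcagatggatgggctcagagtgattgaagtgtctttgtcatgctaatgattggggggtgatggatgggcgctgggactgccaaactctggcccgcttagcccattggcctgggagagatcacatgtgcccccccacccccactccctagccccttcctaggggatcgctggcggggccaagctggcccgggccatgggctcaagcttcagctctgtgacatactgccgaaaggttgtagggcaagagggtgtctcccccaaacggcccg
Hoxd1, chr2:74762730-74763029, plus strand: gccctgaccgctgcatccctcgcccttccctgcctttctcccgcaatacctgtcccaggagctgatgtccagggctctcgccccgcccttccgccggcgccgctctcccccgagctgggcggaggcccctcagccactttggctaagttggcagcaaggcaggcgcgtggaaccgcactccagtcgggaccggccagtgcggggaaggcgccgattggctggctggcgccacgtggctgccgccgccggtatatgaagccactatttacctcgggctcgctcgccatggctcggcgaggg

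The Hoxb8 window held 2 matches and the Hoxd3 window 1, while the Hoxb1 and Hoxd1 windows held 0. TTTATG or CATAAA was present in 11.9% of all 32851 windows and in 5 of the 24 Hox windows, those of Hoxa7, Hoxb8, Hoxd3, Hoxd4 and Hoxd11. TATAAA or its reverse complement TTTATA was present in 13.6% of all windows and in 4 Hox windows, those of Hoxa10, Hoxb8, Hoxd4 and Hoxd13, with no overlap between matches of the 2 motifs. The retinoic acid receptor core NGNTCA, repeated on 1 strand with 5 bases between the copies, was in 0.861% of all windows and in 0 Hox windows, and with 2 bases between them in 1.11% and 0. The Hox windows were rich in CpG, with a median of 14.5 per window against 7.0 over all windows, and among those shown Hoxd1 had 29, Hoxd3 20, Hoxb8 13 and Hoxb1 10. A match is a description of these letters and not evidence of binding.

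Of 19 noncoding genes listed for the clusters, 13 were tested. Between genotypes in 2i 0 rose and 4 fell (Halr1, Hoxa11os, Mir196b and Hotairm1), beside 31.5% of all genes higher and 15.3% lower. Halr1, transcribed just outside cluster A, had 65.0, 52.4 and 60.9 FPKM in Daxx-null and 423, 471 and 394 FPKM in wild-type 2i cells. Its groups were far apart and replicate 2 was no exception (log2 difference -2.84, SE 0.221, adjusted p = 4.7e-07). Hotairm1, a noncoding RNA of cluster A, had 49.1, 83.5 and 71.8 FPKM in Daxx-null and 115, 134 and 147 FPKM in wild-type 2i cells (-0.98, SE 0.296, adjusted p = 0.013). In serum 0 rose and 3 fell (Hoxaas2, Hotairm1 and Mir196a-1), beside 9.29% of all genes higher and 18.9% lower, and in retinoic acid 0 rose and 0 fell. Medians were -0.20 in serum, -0.12 in 2i (-0.79 without replicate 2, with 6 falls) and -0.08 in retinoic acid. The microRNA entries are host or hairpin rows of a long-RNA library and do not measure the mature molecules.

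Genes just outside the clusters showed no common direction. Of 16 tested, 3 rose and 5 fell in 2i, 1 rose and 5 fell in serum, and 0 changed in retinoic acid. Of all genes, 31.5% rose and 15.3% fell in 2i, and 9.29% rose and 18.9% fell in serum. Evx1, the even-skipped homeobox gene beside Hoxa13, had 6.15, 4.30 and 4.42 FPKM in Daxx-null and 0.331, 0.874 and 0.113 FPKM in wild-type serum cells, and rose (log2 difference 2.60) where the nearest Hox genes did not. Among the 9 Hox cofactors, which bind DNA jointly with Hox proteins, 5 rose and 1 fell in 2i (4 and 1 without replicate 2). In serum 0 of them rose and 4 fell, and in retinoic acid 0 changed. Both counts stand beside the same shares of all genes in 2i and serum. Meis1 had 14.0, 74.3 and 13.1 FPKM in Daxx-null and 10.5, 8.47 and 0.732 FPKM in wild-type 2i cells (2.31, adjusted p = 0.011), and was among the rises only with replicate 2 included.

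Of the upstream regulators of the clusters (15 tested), 2 rose and 7 fell in 2i (3 and 6 without replicate 2), beside 31.5% of all genes higher and 15.3% lower. Cdx1, a caudal factor that acts on Hox promoters, had 185, 86.0 and 155 FPKM in Daxx-null and 725, 735 and 1510 FPKM in wild-type 2i cells. Its groups did not overlap (log2 difference -2.78, SE 0.37, adjusted p = 3.1e-05). Nkx1-2, a gene of caudal progenitors, had 0.51, 1.42 and 1.65 FPKM against 24.4, 21.5 and 23.9 FPKM (-3.88, SE 0.38, adjusted p = 2.5e-06). In serum 3 rose (Cdx4, Gbx2 and Sall4) and 1 fell (Fgf4), beside 9.29% of all genes higher and 18.9% lower. Cdx4 had 7.96, 3.48 and 5.91 FPKM in Daxx-null and 0.822, 0.755 and 0.61 FPKM in wild-type serum cells. In retinoic acid 0 of 15 changed. Retinoic acid response genes (16 tested) split in 2i into 7 rises and 3 falls (5 and 4 without replicate 2), with 0 and 3 in serum. These stand beside the shares of all genes just given for 2i and serum. In retinoic acid 0 rose and 2 fell, Stra8 (-1.33) and Tgm2 (-1.03), beside 0.222% and 2.27% of all genes.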

How the data were processed

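RNA of 18 libraries (6 groups of 3) was analysed. Per the labels' protocols, RNA was enriched with oligo-dT beads and then depleted of ribosomal RNA; the design text names depletion of total RNA only. Whether the libraries kept strand is not stated in these sources. The authors deposited FPKM per library for 24505 RefSeq entries in mm9, made with Bowtie2 2.2.6 and HOMER 4.8, per the submitters' processing notes. Their scale was inferred to be 10 M reads, about 10 times a conventional FPKM. On it, 100% of low values were whole multiples (within 0.1) of 1 counting unit, which gives the depths of 84.2 to 141.7 M units. A second table the authors deposited holds log2 values, which equal log2 of quantile-normalized FPKM plus 1 (largest difference 4.99e-09) and served as an alternative.

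Tests used limma-trend (limma 3.58.1, R 4.3.3; tables were read with pandas 2.3.3) on log2(FPKM + 0.5) of the 18002 genes that reached 1 FPKM in 3 or more libraries. All 18 libraries entered 1 fit of 6 group means, tests were two-sided, and p-values were adjusted by Benjamini-Hochberg over all genes tested. The procedure was tested on simulated data. Alternatives were other pseudocounts, filters and scalings, only the groups compared, the replicate number as a block, and leaving out libraries. The p-values cover the spread among these libraries, which may be technical.

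Per-library values are given for called genes with the largest differences (higher group mean at least 2 FPKM), the 3 highest per group, those called for a difference between cultures and the highest per cluster in Daxx-null 2i replicate 2. Other genes named were chosen after their values were seen. The members and lists were chosen with earlier results of these data known. A single Hox gene is counted in totals and not reported by itself or drawn here. All expression columns had a sample (0 without). With 3 replicates a group, precision is limited most for low genes.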

Additional observations from a re-analysis of the deposited data

Results flagged for a closer look

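The difference between genotypes itself differed between 2i and serum for the Hox genes given here, by the limma test of that difference. Of the 37 tested Hox genes 4 (10.8%) were higher and 2 (5.41%) lower, both less than the 31.5% and 11.5% of all genes. In 2i against serum, the log2 difference between Daxx-null and wild-type cells was lower by -2.22 for Hoxa10 and by -3.58 for Hoxa11, and higher by 2.66 for Hoxb9, 1.87 for Hoxb13, 1.83 for Hoxc4 and 1.37 for Hoxd1. Without Daxx-null 2i replicate 2 these were -2.87, -3.83, 1.72, 1.57, 1.22 and 1.34, and Hoxd1 no longer passed (adjusted p = 0.061). Hoxb13 was called lower in Daxx-null cells in both serum (-2.73) and 2i (-0.86), so on the log2 scale the gap was smaller in 2i. The 2i call was marginal in the limma test (adjusted p = 0.0497). The Hoxb13 difference between cultures was not called under quantile normalization (0.916, adjusted p = 0.133) or with the authors' normalised values (0.765, adjusted p = 0.181). Under either of these settings 0 of the 37 Hox genes were called for a higher difference. Hoxc4 and Hoxd1 were called lower in serum and not in 2i.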

How the results depend on the processing

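Scaling moved the balance of all calls: the median log2 difference of all genes was -0.12 in serum and 0.20 in 2i, and higher calls made up 32.93% of all calls in serum (50.65% under quantile normalization, 49.18% under median-ratio scaling), 67.26% in 2i (46.97%, 53.74%) and 73.2% for 2i minus serum (47.09%, 54.02%). For counts of Hox genes, 144 of the values under other settings stayed within 1.5 times and 26 moved. For single genes 724 values kept their call and 47 lost it, and 0 reversed; the cause was not tested. Between genotypes, falls in serum were 4 under quantile normalization and 4 with the authors' table, beside 11.8% and 11.9% of all genes. In 2i, rises were 2 with no filter and 0 with only the groups compared or with wild-type replicate 3 left out along with Daxx-null replicate 2; falls were 13 under quantile normalization and with the authors' table, 4 with only the groups compared and 23 without these 2 libraries. In retinoic acid, falls were 1 with a pseudocount of 1 or 0.1 and with the authors' table. Falls from serum to 2i in wild type were 0 under quantile normalization and with the authors' table. For the difference between genotypes in 2i minus serum, 0 genes were higher under quantile normalization and with the authors' table, and 2 with only the groups compared; 6, 8 and 9 were lower under quantile normalization, with the authors' table and without these 2 libraries. For retinoic acid minus serum, 2 were higher with a pseudocount of 0.1 or a filter of 5 FPKM, 0 with no filter, under quantile normalization and with the authors' table, and 7 with only the groups compared.

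With each library left out in turn, genotype falls ranged from 5 to 10 in serum, 6 to 16 in 2i and 0 to 1 in retinoic acid, and rises from 0 to 0, 0 to 3 and 0 to 0. Rises in 2i over serum ranged from 23 to 31 in wild type and 29 to 34 in Daxx-null cells, and falls from 0 to 1 and 1 to 1. Rises in retinoic acid over serum stayed at 30, and falls at 2 in wild type and 2 to 3 in Daxx-null cells. Higher differences ranged from 3 to 6 for 2i minus serum and 0 to 2 for retinoic acid minus serum, and lower ones from 1 to 5 and 0 to 0. Replicate numbers did not pair the samples: same-numbered libraries of the 2 genotypes correlated at -0.047 to 0.063 in serum, -0.162 to 0.154 in 2i and 0.024 to 0.079 in retinoic acid. With the replicate number as a block, 0 Hox genes rose and 9 fell between genotypes in serum, 1 rose and 8 fell in 2i, and 0 and 0 in retinoic acid; 29 rose from serum to 2i in wild type, and for 2i minus serum 3 differences were higher. Hoxb13 in 2i (-0.86, adjusted p = 0.0543) and the difference of Hoxd1 (1.37, adjusted p = 0.0504) lost their calls under it. Hoxd10 and Hoxd12 were too low to test, and members near 0 in serum allow only large differences to be seen.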
